A study of Homo sapiens with 12 samples.

Results

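The genes described here are 5 of the human alpha-arrestins (TXNIP, ARRDC1, ARRDC2, ARRDC3 and ARRDC4) with the 2 subunits of the glucose-sensing transcription factor MondoA-MLX (MLXIP, which encodes MondoA, and MLX). They are 7 of the 34318 genes that the deposited table covers. ARRDC3 was chosen by its values: it was higher in both comparisons of the study, so its differences are given as a description without a test. The other 6 were chosen by gene family and pathway and were tested, although earlier results of these data were known when the set was drawn up. The estimated reads and the TPM (abundance per transcript length, scaled to the same total in every library) of 55 transcript rows were summed to these 7 genes by symbol.

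All cells were HEK293T, a transformed line from human embryonic kidney that carries the SV40 large T antigen and was kept in a high-glucose medium. In the knockdown experiment, cells transfected with a control siRNA (siControl) or with an siRNA against POLR3A (siPOLR3A) were collected after 2 days. POLR3A encodes the largest subunit of RNA polymerase III (Pol III). In the inhibitor experiment, cells were collected 4 hours after 25 µM ML60218, a small-molecule Pol III inhibitor, or 0.1% DMSO alone. Each of the 4 groups had 3 libraries, all of stranded mRNA from the same line. The number of siRNA sequences used is not given in the sources used here. The study asked whether protein-coding mRNAs respond to loss of Pol III.

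Alpha-arrestins are cytoplasmic adaptors. Several carry PY motifs that recruit NEDD4-family ubiquitin ligases to membrane proteins and so promote their endocytosis. TXNIP also binds thioredoxin and lowers glucose uptake by removing glucose transporters from the cell surface, an action shared by ARRDC4. MondoA pairs with MLX, moves into the nucleus when glucose 6-phosphate accumulates, and binds carbohydrate response elements in the TXNIP and ARRDC4 promoters, so TXNIP mRNA is widely used as a readout of glucose-derived signals. A carbohydrate response element is a pair of E-box-like sequences set a fixed distance apart.

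The RefSeq promoters (assembly GRCh38.p14, 250 bases before to 50 after a start) of all 7 genes were searched on both strands, in the 250 bases before the start. The motifs were the E-box CACGTG, the CCAAT box, the forkhead-type GTAAACA, and a pair of E-box-like cores, each CACGNG or its complement CNCGTG, separated by 5 bases. The 3 promoters below are those of the 3 genes with the largest differences, cut back to the bases before the first annotated transcript. They run 5′ to 3′ on the gene's strand, and capitals mark the motifs, with ATTGG being a CCAAT box on the other strand. TXNIP is at chr1:145996601-145996829 on the minus strand, ARRDC4 at chr15:97960453-97960697 on the plus strand and ARRDC3 at chr5:91383360-91383567 on the minus strand.
TXNIP: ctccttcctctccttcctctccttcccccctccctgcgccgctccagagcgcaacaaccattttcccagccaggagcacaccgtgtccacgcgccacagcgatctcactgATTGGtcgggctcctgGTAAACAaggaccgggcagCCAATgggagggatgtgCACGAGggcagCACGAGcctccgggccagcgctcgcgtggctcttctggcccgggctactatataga
ARRDC4: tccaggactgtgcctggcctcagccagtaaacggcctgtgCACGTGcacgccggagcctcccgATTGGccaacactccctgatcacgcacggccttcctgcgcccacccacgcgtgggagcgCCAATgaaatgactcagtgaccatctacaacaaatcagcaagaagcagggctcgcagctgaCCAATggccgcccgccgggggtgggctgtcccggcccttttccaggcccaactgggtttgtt
ARRDC3: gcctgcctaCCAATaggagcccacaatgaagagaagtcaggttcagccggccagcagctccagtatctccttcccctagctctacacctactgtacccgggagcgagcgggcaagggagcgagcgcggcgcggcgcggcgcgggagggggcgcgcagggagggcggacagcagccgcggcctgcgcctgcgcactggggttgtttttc

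TXNIP was the only one of the 7 genes whose window held the paired cores, which begin 88 bases before the RefSeq start. Among all 35116 promoter windows, 23 held such a pair (0.07%). The TXNIP pair is 2 copies of the core CACGAG. Upstream of it lie a forkhead-type motif at −124 and CCAAT boxes at −140 and −105. ARRDC4 held an E-box at −210 and CCAAT boxes at −187, −128 and −67, and the printed ARRDC3 window held a CCAAT box at −241. MLX held an E-box at −50 and a CCAAT box at −66. Another RefSeq window of ARRDC3 held the forkhead-type motif at −29. CCAAT boxes also lay in windows of ARRDC1 (−80), ARRDC2 (−93) and MLXIP (−76). CCAAT boxes were found in 32.01% of all windows, E-boxes in 6.34% and GTAAACA in 2.98%. A match of letters is a description and not a measured binding site. The search took only pairs of these exact cores, 5 bases apart, in the 250 bases before a start. A carbohydrate response element with other letters, spacing or position would be missed, in ARRDC4 as in any other gene.

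Libraries held between 37008325 and 49479476 estimated reads, and between 286 and 4251 of these fell on 1 of the 7 genes in 1 library. Mitochondrial genes took 5.38% to 9.73% of the reads. POLR3A was 5.14-fold lower in siPOLR3A than in siControl (log2 fold change −2.36, SE 0.108, adjusted p = 1.94e-05), which checks the labels of the knockdown, and 1.30-fold lower with ML60218 (−0.38, SE 0.041, adjusted p = 0.000229, but −0.23 and 0.0512 in limma on log2 TPM). Epithelial markers summed to 34.2–36.3 TPM in siControl, 38.3–41.1 in siPOLR3A, 39.2–40.8 in DMSO and 42.8–45.3 in ML60218, mostly KRT18, with 4 of 5 above 1 TPM on average. The embryonic kidney and neural-precursor markers summed to 184–208 TPM in siControl against 110–114 in siPOLR3A, and to 136–144 in DMSO against 161–179 in ML60218, with all 5 detected. NEFM and NEFL made most of these sums. From siControl to siPOLR3A, mean NEFM fell from 92.2 to 35.7 TPM and NEFL from 78.8 to 49.9. GATA3 (17.9 to 20.9) and PAX2 (4.16 to 4.88) went the other way, and LHX1 went from 1.56 to 1.06. Fibroblast markers summed to 30.2–32.3, 30.5–34.5, 22.7–23.6 and 23.2–24.5 TPM in siControl, siPOLR3A, DMSO and ML60218, with COL1A2 near 0 throughout. Within this sum, mean COL1A1 rose from 20.7 TPM in siControl to 26.3 in siPOLR3A. LUM (6.98 to 4.46), COL3A1 (2.55 to 1.77) and DCN (0.925 to 0.294) fell. Mature nephron markers summed to 7.97–9.78, 9.27–10.7, 3.27–3.95 and 4.14–4.67 TPM in the same order. Endothelial markers summed to at most 0.51 TPM. Of the blood markers, PTPRC and HBB were at 0 in every library. The part of these shifts in the results below was not tested. In bulk RNA, a change in the number of cells that express a gene and a change in RNA per cell cannot be told apart.

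Levels were compared between genes per length, as TPM. In siControl, MLX was the most abundant of the 7 genes at 41.6 ± 1.99 TPM (SD, n = 3), followed by ARRDC1 at 21.0 ± 0.655, MLXIP at 20.1 ± 0.768 and TXNIP at 16.2 ± 0.625. ARRDC4 stood at 8.33 ± 0.365, ARRDC3 at 6.24 ± 0.725 and ARRDC2 at 5.91 ± 0.501 TPM. ARRDC1 and MLXIP overlapped across libraries, as did ARRDC3 and ARRDC2, and the other neighbours in this order did not. MLXIPL, the MondoA paralogue ChREBP that drives lipogenic genes in liver, was at 22.5 ± 1.21 TPM in siControl, close to MLXIP. ARRDC5 was listed at 0 in 11 of 12 libraries.

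In DMSO the order was MLX (44.2 ± 0.923 TPM), ARRDC1 (21.7 ± 0.716), MLXIP (20.4 ± 0.749), ARRDC4 (19.0 ± 0.755), TXNIP (17.1 ± 0.756), ARRDC2 (6.40 ± 0.947) and ARRDC3 (5.84 ± 0.688). ARRDC1 and MLXIP, and ARRDC2 and ARRDC3, again overlapped between libraries. ARRDC4 was at a higher level in the DMSO controls than in the siControl cells, while TXNIP was at a similar level in both. The control groups differ in transfection and time in culture, and were not tested against each other. The ratio of TXNIP to ARRDC4 TPM was 1.90–1.97 in siControl, 0.953–1.03 in siPOLR3A, 0.881–0.914 in DMSO and 0.545–0.669 in ML60218.

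**Figure D1:**
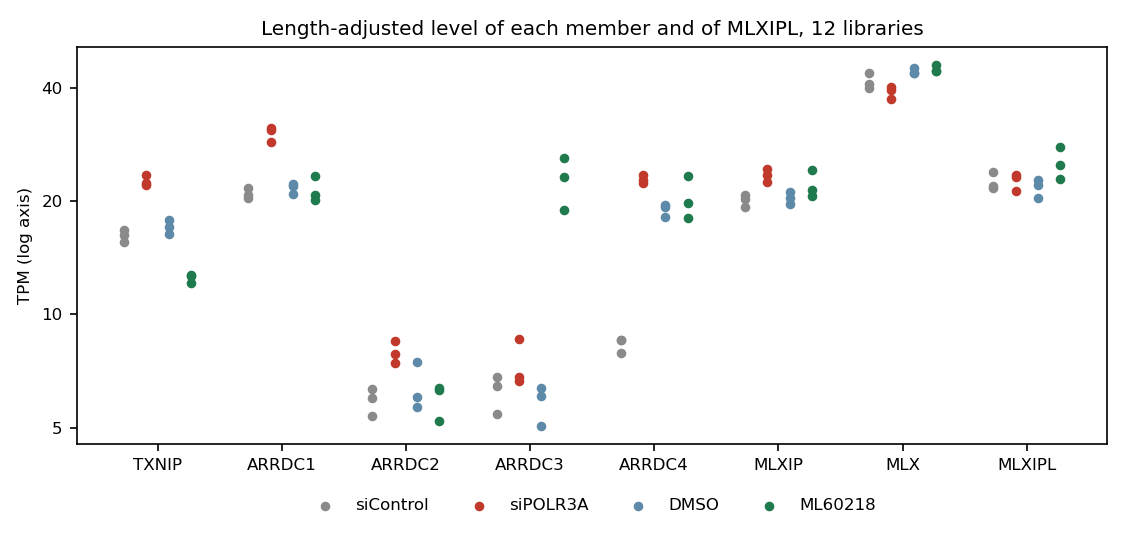
TPM (log axis) of the 7 genes and of MLXIPL, 1 point per library, coloured by group. MLX is highest in every group, ARRDC4 is at 7.91–8.55 TPM only in siControl, and ARRDC3 is at 18.9–26.1 TPM only in ML60218.

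After depletion of POLR3A, TXNIP, ARRDC4, ARRDC1, ARRDC2 and MLXIP rose and MLX fell. All 6 tested members were called, 5 higher and 1 lower, at an adjusted p under 0.05. The background in this comparison was high: 56.6% of the 15404 genes tested passed the threshold, 27.4% upwards and 29.2% downwards. The median log2 fold change of the 6 was 0.40, against 0.01 over all genes tested.

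ARRDC4 had the largest change (ENSG00000140450, chromosome 15, 97960698 to 97973838, plus strand). In CPM (reads of a gene scaled by library size, separately within each experiment), the siControl libraries held 25.2, 25.0 and 26.1 (mean 25.4 ± 0.583, SD, n = 3) and the siPOLR3A libraries 71.0, 69.0 and 66.9 (mean 69.0 ± 2.05). Every siPOLR3A library was above every siControl library. This was a 2.71-fold rise (log2 fold change 1.44, SE 0.037, adjusted p = 9.69e-13) and ranked 209 by size among all genes tested. Of the 7 genes, only ARRDC4 has a single annotated transcript, so its value does not depend on how reads were shared among isoforms.

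TXNIP (ENSG00000265972, chromosome 1, 145992435 to 145996600, minus strand) had 34.8, 36.1 and 35.7 CPM in siControl (mean 35.5 ± 0.687). In siPOLR3A it had 50.9, 53.3 and 49.3 CPM (mean 51.2 ± 1.97). The groups were far apart relative to their spread, and the rise was 1.44-fold (log2 fold change 0.53, SE 0.038, adjusted p = 3.98e-08). Both classical MondoA-MLX targets thus rose, ARRDC4 by more than TXNIP on the log2 scale.

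ARRDC1 (ENSG00000197070, chromosome 9, 137605654 to 137615360, plus strand) recruits TSG101 and the ESCRT machinery to the plasma membrane, where it drives budding of small vesicles. Its levels were 16.4, 16.8 and 15.7 CPM in siControl and 23.7, 22.3 and 22.1 in siPOLR3A, without overlap. The rise was 1.39-fold (log2 fold change 0.48, SE 0.055, adjusted p = 4.64e-06). ARRDC2 (ENSG00000105643, chromosome 19, 18001132 to 18014102, plus strand), a less studied adaptor of the same family, was at 8.62, 9.82 and 9.51 CPM against 12.7, 10.6 and 10.4. Its groups did not overlap, but the rise was small (log2 fold change 0.27, SE 0.086, adjusted p = 0.0163). Its call was lost without siPOLR3A replicate 1 (adjusted p = 0.106), without siControl replicate 1 (0.065), with DESeq2 (0.0538) and after correction for GC content and length (0.448).

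MLXIP (ENSG00000175727, chromosome 12, 122078722 to 122147347, plus strand) had 79.7, 86.0 and 80.4 CPM in siControl and 102, 103 and 102 in siPOLR3A. The groups did not overlap, and the rise was 1.25-fold (log2 fold change 0.32, SE 0.032, adjusted p = 1.08e-06). Its partner MLX (ENSG00000108788, chromosome 17, 42567068 to 42573239, plus strand) was at 64.9, 65.2 and 68.5 CPM against 62.9, 59.1 and 61.1. MLX fell by 0.12 on the log2 scale (SE 0.035, adjusted p = 0.0106), and this call was lost under 6 of 17 alternatives, among them total-count scaling (adjusted p = 0.125) and the omission of siControl replicate 3 (0.059) or siPOLR3A replicate 2 (0.0591). MLX TPM was 1.92–2.16 times MLXIP TPM in siControl and 1.59–1.79 times in siPOLR3A.

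**Figure D2:**
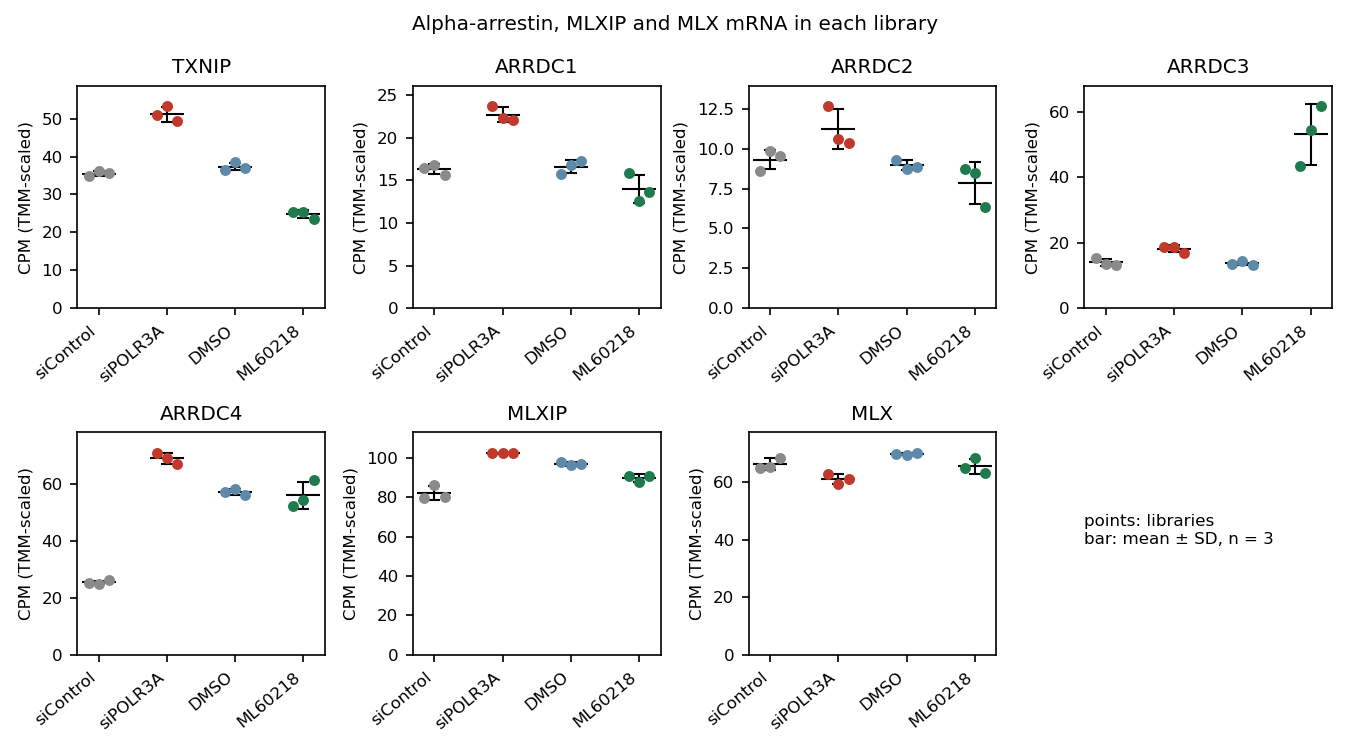
CPM of each gene in each library (points) with the group mean and SD (bars, n = 3), by group, each panel from 0. ARRDC4 stands at 25.0–26.1 CPM in siControl and 66.9–71.0 in siPOLR3A, and ARRDC3 at 13.3–14.3 CPM in DMSO and 43.3–61.7 in ML60218.

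With ML60218 for 4 hours, TXNIP fell while ARRDC4 was not called. Of the 6 tested members, 3 were called in edgeR, 0 higher and 3 lower (TXNIP, ARRDC1 and MLXIP). At an unadjusted p under 0.05 the counts were 0 higher and 4 lower, with DESeq2 0 and 2, and with limma on log2 TPM 0 and 1. In the background, 39.0% of 15461 genes passed, 18.1% upwards and 20.9% downwards. The median log2 fold change of the 6 was −0.16, against 0.01 over all genes tested.

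TXNIP had 36.5, 38.4 and 37.1 CPM in the DMSO libraries (mean 37.4 ± 0.991) and 25.4, 25.4 and 23.6 in the ML60218 libraries (mean 24.8 ± 1.05). Every ML60218 library was below every DMSO library, by far more than the spread within a group. The fall was 1.51-fold (log2 fold change −0.59, SE 0.05, adjusted p = 0.000107). In TPM the same libraries stood at 17.1, 17.8 and 16.3 against 12.1, 12.7 and 12.8, again without overlap.

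ARRDC4, the other MondoA-MLX target, had 57.2, 58.3 and 56.3 CPM in DMSO and 52.4, 54.2 and 61.4 in ML60218. The groups overlapped, because ML60218 replicate 3 lay above all DMSO libraries and the other two lay below them. The log2 fold change was −0.03, with a 95% interval of −0.16 to 0.10 (adjusted p = 0.711). Its sign depended on the scaling and on ML60218 replicate 1, with 0.09 in limma on log2 TPM and 0.02 (0.015) without that library.

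ARRDC1 was at 15.8, 16.8 and 17.2 CPM in DMSO and at 15.8, 12.6 and 13.6 in ML60218. The lowest DMSO library and the highest ML60218 library were at nearly the same level. The fitted log2 difference was −0.24 (SE 0.085, adjusted p = 0.0443), and the call was lost under 12 of 17 alternatives, with adjusted p up to 0.87. It was lost without any 1 of the DMSO libraries (adjusted p 0.0562 to 0.136) and without ML60218 replicate 2 (0.146) or 3 (0.105). ARRDC2 was at 9.30, 8.75 and 8.86 CPM against 8.74, 8.45 and 6.33, with a log2 fold change of −0.20 (95% interval −0.46 to 0.06, adjusted p = 0.215), and of −0.06 without ML60218 replicate 3.

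MLXIP was at 98.0, 96.2 and 96.6 CPM in DMSO and at 90.7, 87.5 and 90.9 in ML60218, which did not overlap. The fitted log2 difference was −0.11 (SE 0.034, adjusted p = 0.0248), but it was 0.11 in limma on log2 TPM, so its sign depended on the scale. The call was also lost without any 1 of the DMSO libraries (adjusted p 0.0704 to 0.095) and without ML60218 replicate 2 (0.0738). MLX was at 69.8, 69.3 and 70.1 CPM against 64.9, 68.3 and 63.0 (log2 fold change −0.09, 95% interval −0.184 to −0.004, adjusted p = 0.0922), and was called (adjusted p = 0.0443) without ML60218 replicate 2. The choice of scale matters in this experiment beyond these genes. On log2 TPM the median of all genes was 0.11, and of called genes 82.2% were higher (3310 against 716), where the CPM fit gave 46.4% (2800 against 3229), total-count scaling 67.0% and upper-quartile scaling 58.6%. TXNIP kept its fall on each of these scales.

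ARRDC3 (ENSG00000113369, chromosome 5, 91368724 to 91383359, minus strand) is an adaptor for NEDD4-family ligases that takes part in the trafficking of beta-adrenergic receptors and integrin beta 4. Its CPM were 15.4, 13.4 and 13.3 in siControl (mean 14.03 ± 1.17) and 18.7, 18.8 and 17.0 in siPOLR3A (mean 18.2 ± 1.01). They were 13.6, 14.3 and 13.3 in DMSO (mean 13.8 ± 0.513) and 43.3, 54.4 and 61.7 in ML60218 (mean 53.1 ± 9.24). In CPM, which were scaled separately in each experiment, the siControl and DMSO libraries lay in one narrow band. The siPOLR3A libraries lay just above that band and the ML60218 libraries far above it, with the largest SD in CPM of any group of the 7 genes.

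The log2 fold changes of ARRDC3 that go with these levels were 0.38 (SE 0.069) after the siRNA and 1.95 (SE 0.134) with ML60218, a 3.86-fold difference that ranked 33 by size among all genes tested. They are the values by which the gene was chosen. The smaller one depended on how length was treated: 0.22 with an offset for isoform length and 0.20 in limma on log2 TPM, and the TPM of siControl (6.82, 6.47 and 5.43) and siPOLR3A (6.67, 8.59 and 6.81) overlapped. ARRDC3 had the lowest mean TPM of the 7 genes in DMSO, overlapping ARRDC2, and stood at 22.8 ± 3.63 TPM in ML60218, where it overlapped MLXIP, ARRDC1 and ARRDC4. The ratio of ARRDC3 to TXNIP TPM was 0.310–0.374 in DMSO and 1.56–2.05 in ML60218.

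**Figure D3:**
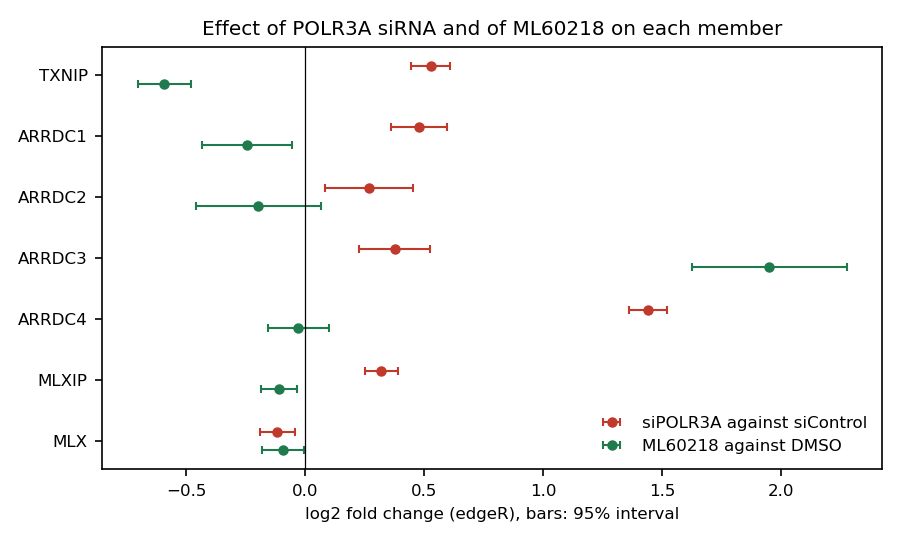
Log2 fold change of each gene (points) with its 95% interval (bars) after the POLR3A siRNA and with ML60218. TXNIP lies at 0.53 and −0.59, ARRDC4 at 1.44 and −0.03, and ARRDC3 at 0.38 and 1.95.

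The siRNA and the inhibitor were then compared as the siRNA effect minus the inhibitor effect in 1 fit of all 12 libraries. The experiments also differ in transfection and in time (2 days against 4 hours), so agent, time and delivery cannot be told apart. Of the 6 tested members, 5 differed, all with the higher value for the siRNA, and MLX did not pass the test. In the background, 50.9% of 15780 genes passed, 24.5% upwards and 26.4% downwards. The difference was 1.125 for TXNIP (SE 0.062, adjusted p = 7.87e-10) and 1.47 for ARRDC4 (SE 0.072, adjusted p = 2.35e-10). It was 0.73 for ARRDC1, 0.47 for ARRDC2 and 0.44 for MLXIP, with adjusted p of 1.84e-05, 0.0195 and 7.22e-07. The ARRDC2 call was lost without siControl replicate 1 (adjusted p = 0.056) or siPOLR3A replicate 1 (0.0631), and after correction for GC content and length (0.19, adjusted p = 0.284). The MLXIP call was lost in limma on log2 TPM (0.10, adjusted p = 0.403). For MLX it was −0.02, with a 95% interval of −0.13 to 0.10 (adjusted p = 0.811). ARRDC3 had the opposite sign, −1.57, given as a description.

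The summed TPM of the 5 alpha-arrestins was 56.4–58.8 in siControl, 89.6–92.5 in siPOLR3A, 66.1–72.2 in DMSO and 78.7–87.6 in ML60218. Within that sum the make-up differed: ARRDC4 made the largest part of the gain in siPOLR3A, and ARRDC3 the largest part in ML60218, where TXNIP fell.

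Transcript estimates showed which mRNA forms carried these levels. The protein-coding TXNIP-204 held 86.7% to 96.3% of TXNIP TPM in every library, and the retained-intron and other noncoding forms held 7.37% ± 2.65 (SD, n = 3) in siControl and 3.11% ± 0.32 in siPOLR3A. ARRDC3-201, the full-length coding form, held 59.7% to 89.4% of ARRDC3 TPM, with noncoding forms at 26.8% ± 7.08 in DMSO and 20.04% ± 6.01 in ML60218, so the ARRDC3 level in ML60218 was carried by the coding form. ARRDC1 differed from these genes. Forms annotated as noncoding or as targets of nonsense-mediated decay held 57.6% ± 5.79 of ARRDC1 TPM in siControl, 59.7% ± 6.0 in siPOLR3A, 53.9% ± 5.13 in DMSO and 47.2% ± 6.33 in ML60218, and these ranges overlapped within each experiment.

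MLXIP-201, the longest MLXIP form, held 58.1% to 64.7% of MLXIP TPM in siControl and 64.4% to 71.9% in siPOLR3A, and 74.8% to 80.4% in DMSO and 68.6% to 74.7% in ML60218. Noncoding MLXIP forms held 26.1% ± 3.16 in siControl, 19.2% ± 2.02 in siPOLR3A, 12.9% ± 2.93 in DMSO and 16.3% ± 2.64 in ML60218. For MLX, MLX-203 held 50.4% to 62.2% in every library. ARRDC2 was split mainly among ARRDC2-202, ARRDC2-206 and ARRDC2-201, all coding. ARRDC2-202 ranged from 7.82% to 26.6% among the siControl libraries alone, so the isoform shares of ARRDC2 were poorly fixed. The cause of this spread was not tested. These shares are estimates from reads that several isoforms share, and no test was made on them.

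**Figure D4:**
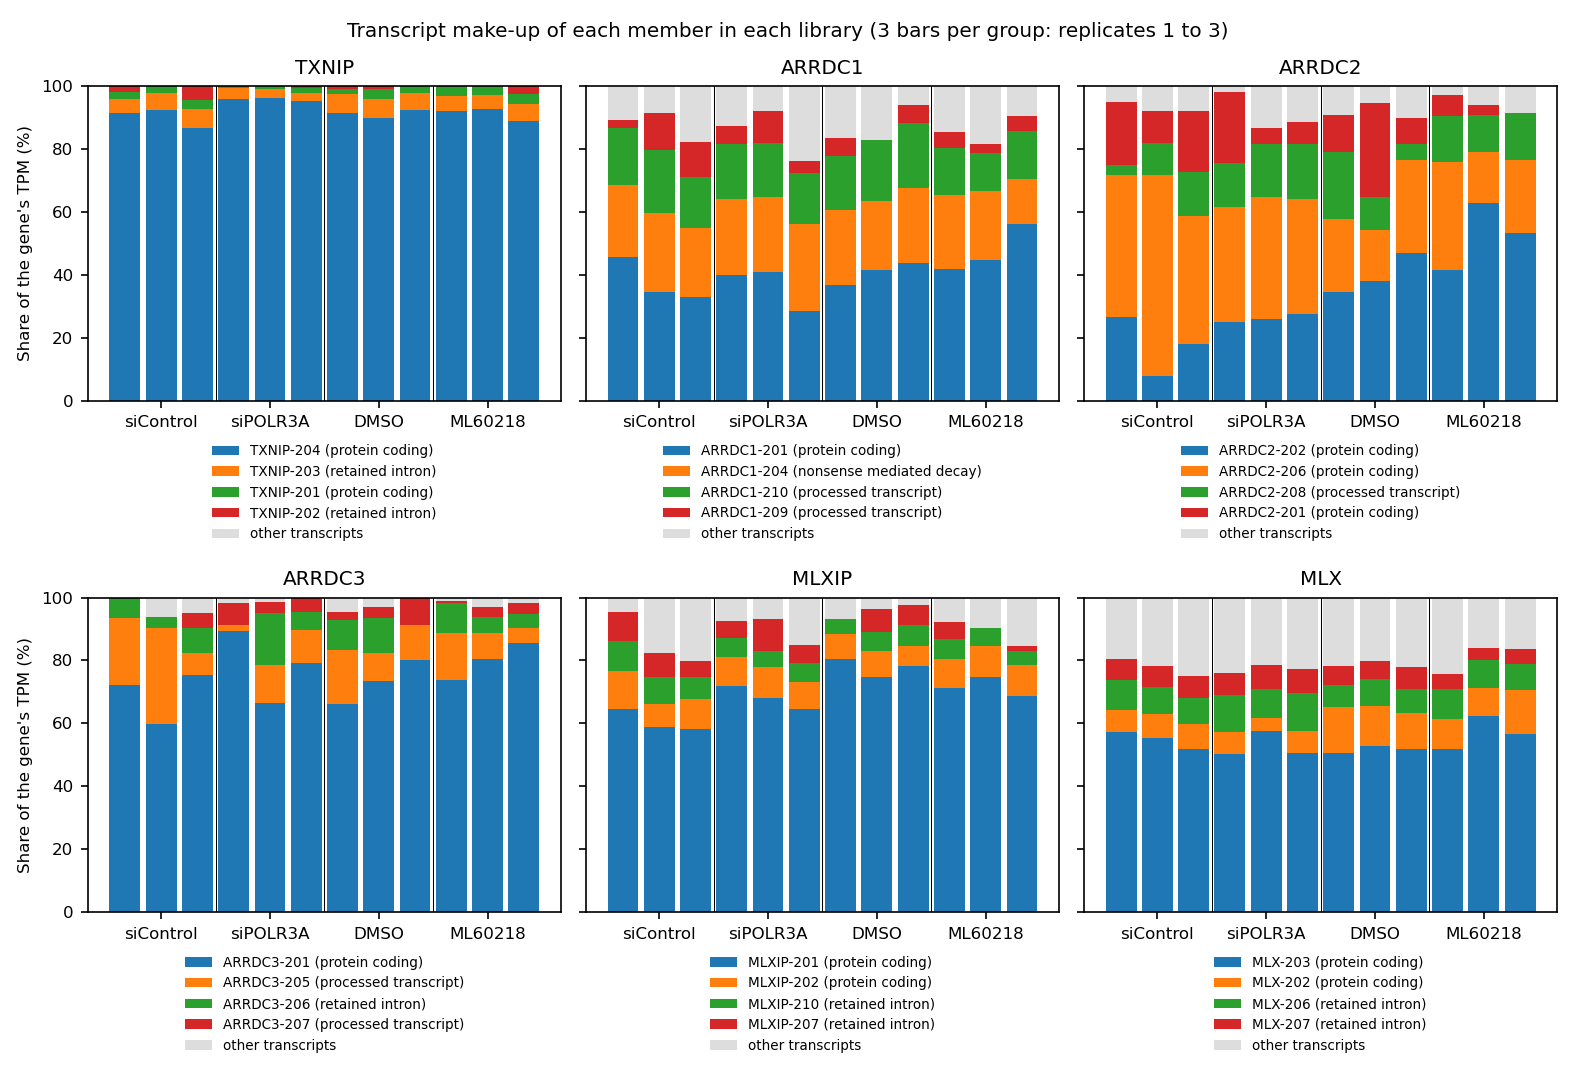
Share of each gene's TPM (%) by transcript in each library, 3 bars per group, for the 6 genes with several transcripts, with the 4 main forms in colour and the rest in grey. TXNIP is nearly all TXNIP-204, whereas ARRDC1 is split among coding, decay-targeted and processed forms.

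Other genes of the pathway were taken from lists. In the MLX, MAX and Mondo network of 11 tested transcription factors, 3 rose, 3 fell and 5 were not called after the siRNA (median −0.04), and 2 rose, 2 fell and 7 were not called with ML60218 (median 0.07). The counts leave out MLX and MLXIP themselves. For all genes tested, the shares were 27.4% higher and 29.2% lower after the siRNA, and 18.1% and 20.9% with ML60218. MXD1 and MXD4, repressive partners of MAX, rose after the siRNA by 0.33 and 0.27, while MYC fell by 0.26 (adjusted p = 0.0953 in the fit of all 12 libraries) and MAX by 0.22. With ML60218, MYC rose by 0.75 (adjusted p = 0.0168, and 0.0579 to 0.0624 without 1 of the DMSO libraries), and MAX fell by 0.29 and MXD4 by 0.29. In limma on log2 TPM these last values were −0.07 for MAX and −0.12 for MXD4, with adjusted p of 0.548 and 0.259. MLXIPL was not called in either experiment, at −0.01 (95% interval −0.13 to 0.11) and 0.03 (−0.14 to 0.21), though it was called lower after the siRNA after correction for GC content and length (−0.19, adjusted p = 0.00743).

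Genes known to respond to carbohydrate through MondoA or ChREBP did not share a direction. Of 15 tested, 6 rose, 4 fell and 5 were not called after the siRNA (median 0.02), and 5 rose, 5 fell and 5 were not called with ML60218 (median −0.05). Among all genes tested, 27.4% were called higher and 29.2% lower after the siRNA, and 18.1% and 20.9% with ML60218. KLF10, a glucose-responsive repressor, rose in both experiments, by 0.80 (adjusted p = 6.43e-09) and 0.43 (adjusted p = 0.000934). FASN, fatty acid synthase, rose by 0.50 after the siRNA and fell by 0.33 with ML60218, the same signs as TXNIP. SCD and ELOVL6, which desaturate and elongate fatty acids, fell by 0.69 and 0.40 after the siRNA, and ELOVL6 fell by 0.40 with ML60218. BHLHE40, a repressor of the clock family, rose by 0.78 with ML60218. It was also higher after the siRNA, at a mean of 81.2 CPM in siPOLR3A against 63.2 in siControl.

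The paired cores seen in the TXNIP promoter were found in 23 genes in all, TXNIP included, and 15 of them were tested. After the siRNA, 9 of these rose, 5 fell and 1 was not called (median 0.12), and with ML60218, 5 rose, 5 fell and 5 were not called (median 0.06). The shares of all genes tested were 27.4% higher and 29.2% lower after the siRNA, and 18.1% and 20.9% with ML60218. Whether genes with the pair differ from other genes was not tested. TXNIP at 0.53 and −0.59 had the lowest ML60218 value of the 15. The largest siRNA values of the 15 were those of TIGD1 (0.84, and 0.27 with ML60218), STX12 (0.76 and 0.06) and P4HA1 (−0.67 and 0.13), named after their values were seen.

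Genes of the ubiquitin ligases that alpha-arrestins recruit moved in both directions, and the largest changes were falls after the siRNA. Of 9 NEDD4-family ubiquitin ligases tested, 3 rose, 4 fell and 2 were not called after the siRNA (median −0.30), and 3 rose, 2 fell and 4 were not called with ML60218 (median 0.15). The 4 that fell were ITCH (−1.06, SE 0.179, adjusted p = 0.00758), HECW1 (−0.75), WWP1 (−0.66, adjusted p = 3.56e-09) and HECW2 (−0.48). Over all genes tested, 29.2% were called lower and 27.4% higher after the siRNA, and 20.9% and 18.1% with ML60218. ITCH and WWP1 bind the PY motifs of several alpha-arrestins, and ITCH targets TXNIP protein for degradation. With ML60218, HECW2 rose by 0.42 and ITCH was not called (0.12, adjusted p = 0.0611). HECW1 lost its call with the length offset (adjusted p = 0.0675) and HECW1 and HECW2 in limma on log2 TPM (0.105 and 0.0626).

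Among 6 trafficking partners, 2 rose, 2 fell and 2 were not called after the siRNA (median 0.11). The shares called among all genes were 27.4% higher and 29.2% lower after the siRNA, and 18.1% and 20.9% with ML60218. PDCD6IP, which encodes the ESCRT adaptor ALIX, fell by 0.41 and VPS4B, the ATPase that disassembles ESCRT, rose by 0.41. TSG101, the partner of ARRDC1 in vesicle budding, fell by 0.14 (adjusted p = 0.00277, and 0.306 after correction for GC content and length) where ARRDC1 itself rose. With ML60218, edgeR called 0 of the 6 higher and 1 lower, at an unadjusted p under 0.05 0 and 2, with DESeq2 0 and 1, and with limma 1 and 0. The beta-arrestins were the only other arrestins tested: ARRB1 fell by 0.27 after the siRNA (but by 0.04 with the offset for isoform length, adjusted p = 0.654), and ARRB2 rose by 0.07, a call lost or reversed under 12 of 17 alternatives.

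In the thioredoxin system, thioredoxin is the protein that TXNIP binds. Of 10 genes of this system, 1 rose, 7 fell and 2 were not called with ML60218 (median −0.19), where 20.9% of all genes tested were called lower and 18.1% higher. After the siRNA 3 rose, 2 fell and 5 were not called (median 0.03), where 29.2% of all genes tested were called lower and 27.4% higher. With limma on log2 TPM, whose median gene was higher as given above, 1 rose and 3 fell with ML60218. PRDX4, a peroxiredoxin of the secretory pathway, fell by 0.38 with ML60218, TXN, thioredoxin itself, by 0.32 (adjusted p = 0.00564) and TXNRD1, thioredoxin reductase, by 0.19 (0.00 on log2 TPM). After the siRNA, TXNRD1 fell by 0.32 (adjusted p = 1.66e-07) and PRDX2 by 0.27, whereas TXN rose by 0.10, a call lost under 7 of 17 alternatives, among them without siControl replicate 1 (adjusted p = 0.0798) or 2 (0.113) and without siPOLR3A replicate 1 (0.0924) or 3 (0.067). TXNIP and TXN therefore had the same sign in each experiment.

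Among genes of glucose uptake and glycolysis, the CPM fit called more lower than higher in both experiments. HK2 is also counted among the carbohydrate-response genes, as is PFKFB3. Of 21 tested, 3 rose, 13 fell and 5 were not called after the siRNA (median −0.14), and 3 rose, 10 fell and 8 were not called with ML60218 (median −0.10). Over all genes tested, the CPM fit called 29.2% lower and 27.4% higher after the siRNA, and 20.9% and 18.1% with ML60218. On log2 TPM with limma the ML60218 counts were 3 higher and 1 lower. SLC2A1, the GLUT1 transporter that TXNIP removes from the surface, was at 0.12 after the siRNA (adjusted p = 0.0195, lost under 9 of 17 alternatives, 4 of which leave out 1 library, with 0.0648 to 0.0856) and −0.10 with ML60218 (adjusted p = 0.16). SLC2A3, the GLUT3 transporter, fell by 0.62 after the siRNA (adjusted p = 0.0103) and rose by 0.62 with ML60218 (adjusted p = 0.0003). TPI1 and ENO2, glycolytic enzymes, fell by 0.55 and 0.52 after the siRNA. HK2, which makes glucose 6-phosphate, fell by 0.26 after the siRNA and rose by 0.23 with ML60218.

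AMPK, the energy-sensing kinase that phosphorylates TXNIP and promotes its degradation, had 6 subunit genes tested. After the siRNA 1 rose, 4 fell and 1 was not called (median −0.35): PRKAG1 fell by 0.81, PRKAB2 by 0.56, PRKAA2 by 0.40 and PRKAG2 by 0.29. Of all genes tested, 29.2% were called lower and 27.4% higher after the siRNA, and 20.9% and 18.1% with ML60218. With ML60218, edgeR called 1 subunit gene higher (PRKAB2, 0.30) and 0 lower. The counts were 2 and 1 at an unadjusted p under 0.05, 1 and 0 in DESeq2 and 3 and 0 in limma.

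**Figure D5:**
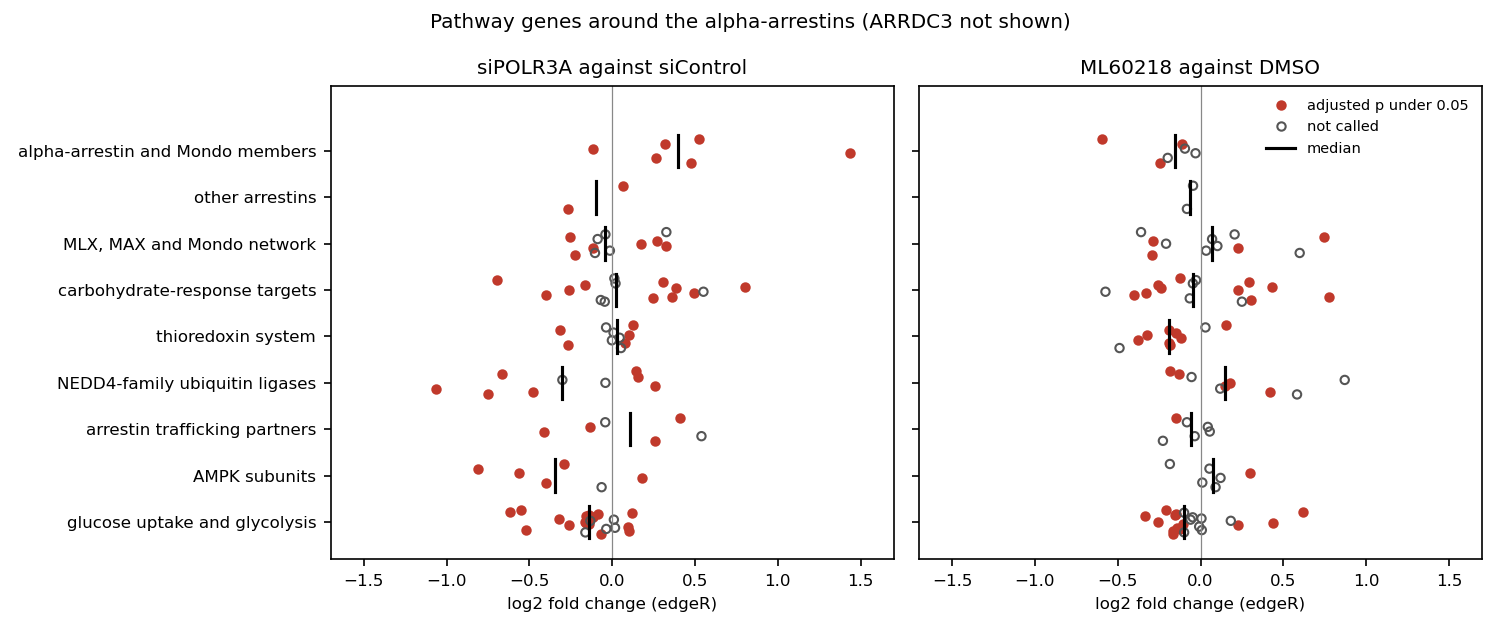
Log2 fold change of each tested gene by list after the siRNA (left) and with ML60218 (right), filled where the adjusted p was under 0.05, with the list's median as a bar. The NEDD4-family and AMPK medians lie at −0.30 and −0.35 after the siRNA and at 0.15 and 0.07 with ML60218, and the thioredoxin median at −0.19 with ML60218.

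The genes with the most similar pattern were found by Pearson correlation of log2 CPM over the 12 libraries among 10293 genes. The 12 points share 4 groups, so the values mainly describe group means and no p is given. TXNIP was most like MAF (r = 0.991), DYNC1LI2 (0.989) and YRDC (0.988), whose log2 fold changes were 0.50, 0.38 and 0.31 after the siRNA and −0.46, −0.37 and −0.40 with ML60218. ARRDC3 was most like LETM2 (0.994), CEBPB (0.989) and SIAH1 (0.987). These had 0.162, 0.275 and 0.134 after the siRNA and 0.90, 1.01 and 0.66 with ML60218. ARRDC4 was most like GNG4 (0.992) and PLS3 (0.992), with 1.29 and 1.16 after the siRNA and 0.012 and −0.011 with ML60218. Similar fold changes follow from choosing genes by correlation over these same libraries. Among the members, TXNIP correlated at 0.919 with ARRDC1, 0.216 with ARRDC4 and −0.707 with ARRDC3, and ARRDC4 at 0.902 with MLXIP. Both ARRDC4 and MLXIP had their lowest mean CPM in siControl (25.4 and 82.0), below DMSO (57.2 and 96.9). These CPM were scaled separately in each experiment, whereas the correlations used 1 scaling of all 12 libraries. In TPM the means were 8.33 and 20.1 in siControl and 19.0 and 20.4 in DMSO. The correlation of this pair may therefore include a difference between the control groups.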

How the data were processed

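Stranded mRNA from 12 HEK293T libraries was measured. Per the submitters' processing notes, bcl2fastq 2.20, Trim Galore and DESeq2 were used with build hg38. Per the file headers, the deposited table gives an estimated count and a TPM value per transcript in the columns that salmon writes. The quantifier's version, settings and transcript release are not given in the sources used here. Libraries were assigned by column name. The deposited TPM sum to 1000000 in each library.

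Transcripts were matched by stable ID to GENCODE release 29 (GRCh38). This matched 158359 of 194142 rows (81.6%), including all annotated transcripts of the 7 genes, and the rest (8.37–8.97% of reads) stayed out of library sizes and tests. The design had assumed counts per gene, so the rows of a gene were added up and rounded to integers. Both comparisons used 6 libraries each, and their difference all 12, in edgeR 4.0.16 under R 4.3.3, with filterByExpr (minimum count 10, minimum total 15), TMM scaling and the two-sided, robust quasi-likelihood test. Adjusted p-values are Benjamini-Hochberg values over all genes tested, called under 0.05.

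Alternatives were DESeq2 1.42.0, limma 3.58.1 on log2(TPM + 1) computed from the deposited TPM, other scalings, no filter, a length offset, neighbouring unmatched rows, 1 fit of all libraries, a replicate block and the omission of each library. A correction for GC content and length was added after seeing the data. With 3 libraries against 3, an exact permutation test cannot give a p below 0.1. Nothing states that replicates came from separate cultures, so p-values measure only the spread between these libraries, which may be technical.

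The members and lists were chosen with earlier results of these data known. Named were the 7 members and POLR3A. Of each list, at most the 4 called genes with the largest absolute log2 fold change in a comparison were named, and MLXIPL, TXN, SLC2A1, HK2 and ITCH always. The 3 genes most correlated with TXNIP, ARRDC3 and ARRDC4 were also named, except 1; it and the summed level of the blood markers are not reported here.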

Additional observations from a re-analysis of the deposited data

Results flagged for a closer look

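The siRNA effect minus the inhibitor effect passed the test for 5 genes, in edgeR on all 12 libraries. On the log2 scale the difference was 1.125 for TXNIP, 0.727 for ARRDC1, 0.47 for ARRDC2, 1.474 for ARRDC4 and 0.437 for MLXIP. The ARRDC2 call was lost after correction for GC content and length (0.193, adjusted p = 0.284) and without siControl replicate 1 or siPOLR3A replicate 1 (adjusted p = 0.056 and 0.0631), and the MLXIP call in limma on log2 TPM (0.101, adjusted p = 0.403). TXNIP was higher in 3 of 3 siPOLR3A libraries than in any siControl library and lower in 3 of 3 ML60218 libraries than in any DMSO library. In that fit 50.9% of all genes were called. The experiments differ in agent, delivery and time, which cannot be told apart.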

How the results depend on the processing

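TXNIP kept its direction and call under all 17 alternatives in each comparison, with log2 fold changes of 0.46 to 0.60 after the siRNA (adjusted p up to 0.000167) and −0.62 to −0.42 with ML60218 (up to 0.00484). After the siRNA so did ARRDC4 (1.36 to 1.499), ARRDC1 (0.32 to 0.54) and MLXIP (0.20 to 0.38). The number of members called with ML60218 was 3, and 1 after correction for GC content and length, the length offset, limma on log2 TPM, total counts and upper-quartile scaling. It was 1 to 3 when single libraries were left out, and 1 when any 1 DMSO library was missing. Leaving out ML60218 replicate 1, 2 or 3 gave 3, 2 and 2 members called. The cause of these differences was not tested.

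Signs turned as follows. In limma on log2 TPM, the ML60218 values were 0.092 for ARRDC4, 0.022 for MLX, 0.111 for MLXIP and 0.003 for VPS4B, and the siRNA value of MLXIPL was 0.012. ARRDC4 with ML60218 was 0.042 with total counts, 0.009 with upper-quartile scaling and 0.015 without ML60218 replicate 1 (range without single libraries −0.102 to 0.015). MLXIPL was 0.036 and 0.045 after the siRNA under these scalings and 0.033 without siControl replicate 2, and with ML60218 −0.005 without DMSO replicate 1 and −0.042 without ML60218 replicate 1 (ranges −0.054 to 0.033 and −0.042 to 0.089). ARRB2 after the siRNA was −0.006 after correction for GC content and length. The difference for MLX was 0.004, 0.007 and 0.002 without ML60218 replicate 2, siControl replicate 3 and siPOLR3A replicate 2 (range −0.051 to 0.007). ARRDC3 after the siRNA moved to 0.215 with the length offset and 0.204 on log2 TPM.

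Of 59 results on list genes, 36 kept their side of the threshold or gained a call and kept their sign, 19 lost a call under at least 1 alternative and 4 changed sign. Of the genes called after the siRNA, 48.4% were higher with TMM scaling, 57.0% with total counts and 58.7% under upper-quartile scaling. Of the called differences, 48.2% were higher with TMM scaling and 32.2% on log2 TPM. Replicate numbers did not pair the samples. The deviations of same-numbered libraries from their group means correlated at −0.106 to −0.023. Those of differently numbered libraries correlated at −0.001 to 0.082. With the replicate block, 8493, 5393 and 7658 genes and 6, 2 and 5 members were called after the siRNA, with ML60218 and in the difference. Only the ML60218 call of ARRDC1 was lost among members (adjusted p = 0.0685). Depth limits ARRDC2 most, with 286 to 489 reads per library.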
